A study of Saccharomyces cerevisiae with 9 samples.

Results

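Amino acid permeases are the plasma membrane carriers through which budding yeast takes up amino acids, and 9 of their genes were followed here in 3 genotypes: GNP1, TAT1, BAP2, BAP3, TAT2, GAP1, PUT4, CAN1 and DIP5, out of 7122 genes in the deposited table. All 9 were among the 6150 genes tested. The set was drawn up by function around GNP1, which was picked because its RNA was lower in one deletion strain and higher in the other; its values are therefore given as a description with no test. The related permease gene AGP1 was left out of the set because it lies in a block of chromosome III with raised RNA in one of the strains, and its values are given beside those of its neighbours.

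RNA was sequenced from a prototrophic CEN.PK strain of Saccharomyces cerevisiae: a strain without PAH1 (pah1Δ), a strain without DGK1 (dgk1Δ) and the wild type (WT), as 3 libraries of each genotype. The product of PAH1 removes the phosphate from phosphatidate to give diacylglycerol, and the kinase made from DGK1 puts it back. All 3 genotypes were grown to log phase in minimal synthetic medium with 2% glucose, and the nitrogen source is not given in the sources used here. The labels number the replicates but do not say that they were separate cultures or transformants, so the p-values here rest on a spread among libraries that may be technical. Libraries held 9205454 to 12795803 counts over genes, and poly(A) RNA was counted without a stated strand. PAH1 had 0 counts in every pah1Δ library, against 454 to 535 in WT, and dgk1Δ libraries held 1 or 2 counts of DGK1, against 1030 to 1502 in the WT libraries. WT replicate 1 stood apart: its counts differed from those of WT replicates 2 and 3 with a chi-square of 53.6 and 39.9 per degree of freedom, where the other WT pair had 3.55. Longer genes were low in it relative to the WT mean (Spearman rho over genes of -0.605). The same held for pah1Δ replicate 2 against its group mean (rho -0.565), and rho lay between -0.313 and 0.543 in the other 7 libraries. Genes in blocks of chromosomes III and IX had raised RNA in dgk1Δ, and no member of the set lies on either chromosome.

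Yeast permeases answer to at least a pair of well-known control systems. The SPS sensor (Ssy1, Ptr3 and Ssy5) detects amino acids outside the cell and leads to cleavage of the transcription factors Stp1 and Stp2, which induce AGP1, BAP2, BAP3, GNP1, TAT1 and DIP5 from promoter elements with a CGGC core. Nitrogen catabolite repression works through GATA factors at GATAAG sites and keeps GAP1 and PUT4 low when a rich nitrogen source is present. CAN1 encodes the arginine permease, which resides in part in membrane furrows shaped by eisosomes.

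GNP1, TAT1, BAP2 and BAP3 were all dense in the CGGC core upstream of the start codon. Their RNA differed between genotypes in different ways, and a link between these letters and the RNA was not tested. The regions are shown to place these 4 genes side by side. Each runs from 600 to 301 bases before the start codon, 5′ to 3′ on the gene's strand, from the RefSeq R64 sequence of the reference strain S288C, with CGGC and its reverse complement GCCG in capitals. The positions are chrIV:1468745-1469044 (minus strand) for GNP1, chrII:378734-379033 (minus) for TAT1, chrII:375991-376290 (minus) for BAP2 and chrIV:550877-551176 (minus) for BAP3.
GNP1: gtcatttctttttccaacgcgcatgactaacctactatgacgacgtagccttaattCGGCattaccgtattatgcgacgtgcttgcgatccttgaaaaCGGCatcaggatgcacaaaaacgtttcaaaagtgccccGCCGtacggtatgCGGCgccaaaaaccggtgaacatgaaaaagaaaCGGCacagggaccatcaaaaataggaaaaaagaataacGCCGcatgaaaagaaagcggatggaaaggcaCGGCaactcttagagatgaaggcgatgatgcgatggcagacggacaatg
TAT1: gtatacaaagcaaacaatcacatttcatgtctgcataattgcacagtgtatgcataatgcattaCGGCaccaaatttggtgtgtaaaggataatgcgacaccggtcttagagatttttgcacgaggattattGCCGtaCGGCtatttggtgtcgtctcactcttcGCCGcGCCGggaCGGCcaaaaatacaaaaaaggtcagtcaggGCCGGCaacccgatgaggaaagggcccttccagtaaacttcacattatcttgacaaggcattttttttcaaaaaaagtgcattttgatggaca
BAP2: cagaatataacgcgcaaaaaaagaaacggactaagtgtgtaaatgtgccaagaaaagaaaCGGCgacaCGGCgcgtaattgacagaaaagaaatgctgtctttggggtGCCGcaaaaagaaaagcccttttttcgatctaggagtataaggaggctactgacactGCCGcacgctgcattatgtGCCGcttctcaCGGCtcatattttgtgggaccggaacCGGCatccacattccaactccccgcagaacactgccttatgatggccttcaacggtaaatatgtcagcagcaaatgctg
BAP3: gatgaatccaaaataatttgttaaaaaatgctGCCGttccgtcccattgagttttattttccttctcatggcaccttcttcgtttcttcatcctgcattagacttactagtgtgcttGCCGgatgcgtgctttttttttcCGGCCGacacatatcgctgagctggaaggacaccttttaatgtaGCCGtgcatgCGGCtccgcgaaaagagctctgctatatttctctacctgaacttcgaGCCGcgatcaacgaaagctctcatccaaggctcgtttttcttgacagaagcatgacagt
Counting both strands and overlapping matches, the 600 bases before the start codon held 7 matches in GNP1, between 544 and 349 bases upstream, 8 in TAT1, 8 in BAP2, of which 7 lie in the bases shown, and 7 in BAP3. Among 6024 genes with a full window of this length, 81 (1.34%) held at least 7. The windows of AGP1, DIP5, GAP1, PUT4, TAT2 and CAN1 held 9, 5, 4, 4, 3 and 1 matches. A match describes letters in this window and is not a measured binding site, and these sequences were not read from the CEN.PK strain.

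GAP1 differed from those genes in its upstream letters. Its region from 500 to 201 bases before the start codon (chrXI:514563-514862, plus strand) is shown with GATAAG and its reverse complement CTTATC in capitals, because GATAAG was the motif in which it stood apart from most members.
GAP1: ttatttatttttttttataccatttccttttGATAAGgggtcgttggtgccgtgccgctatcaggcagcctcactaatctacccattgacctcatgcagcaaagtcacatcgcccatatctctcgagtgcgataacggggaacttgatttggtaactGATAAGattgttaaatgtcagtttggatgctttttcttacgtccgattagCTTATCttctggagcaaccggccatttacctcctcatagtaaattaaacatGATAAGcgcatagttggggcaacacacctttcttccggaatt
The full 600 bases held 5 matches to GATAAG in GAP1, of which 4 lie in the bases shown, 3 in CAN1 and 2 in AGP1, and 0 in the other 7 genes, PUT4 included. At least 1 match was present in 26.8% of the 6024 windows and at least 5 in 0.116%. TGACTC, the core letters bound by the activator of amino acid synthesis Gcn4, was found 1 time each in BAP2, CAN1 and AGP1 and in 15.3% of all windows at least once.

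GNP1 (YDR508C, chromosome IV, 1466453 to 1468444, build R64, minus strand) encodes a high-affinity glutamine permease that also carries several other amino acids. In CPM, counts scaled to a common library size with TMM factors, its RNA was 5.28, 4.84 and 4.08 in pah1Δ replicates 1 to 3, 24.0, 23.7 and 21.4 in dgk1Δ replicates 1 to 3, and 10.7, 13.0 and 11.9 in WT replicates 1 to 3. The pah1Δ libraries were thus the lowest, the dgk1Δ libraries the highest, and no group overlapped another. The means were 4.73 ± 0.608 CPM in pah1Δ, 23.0 ± 1.44 in dgk1Δ and 11.9 ± 1.12 in WT (SD, n = 3). The log2 fold change was -1.32 (SE 0.148) for pah1Δ over WT, 0.96 (SE 0.13) for dgk1Δ over WT and -2.28 (SE 0.143) for pah1Δ over dgk1Δ. These are the values for which the gene was chosen, so no test is attached to them.

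Few reads lay behind the pah1Δ values of GNP1. The counts were 62, 47 and 43 in pah1Δ, 242, 302 and 209 in dgk1Δ and 126, 125 and 108 in WT. Exact Poisson 95% intervals, which cover counting error only, ended at 6.77 CPM for the highest pah1Δ library, began at 18.6 CPM for the lowest dgk1Δ library, and began at 8.94 CPM and ended at 15.5 CPM at the outer edges of the WT libraries. They show the counting error of the chosen values and are no test of the groups. GNP1 overlaps a short reading frame, YDR509W, which had 0 to 9 counts per library; how reads lying in both were counted is not stated, so the number shared or lost is not known. The 10 nearest genes on chromosome IV with a mean of at least 10 CPM, 5 on each side, had a median log2 fold change of 0.07 in pah1Δ (range -0.14 to 0.29) and 0.05 in dgk1Δ (range -0.24 to 0.19) over WT. These values are given as the setting of a gene picked for its own change, with no comparison drawn. On log2(FPKM + 1), a scale that shrinks the change of low genes, the pah1Δ value was -0.97, and over all alternatives the pah1Δ value ran from -1.41 to -0.97 and the dgk1Δ value from 0.87 to 1.02.

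**Figure D1:**
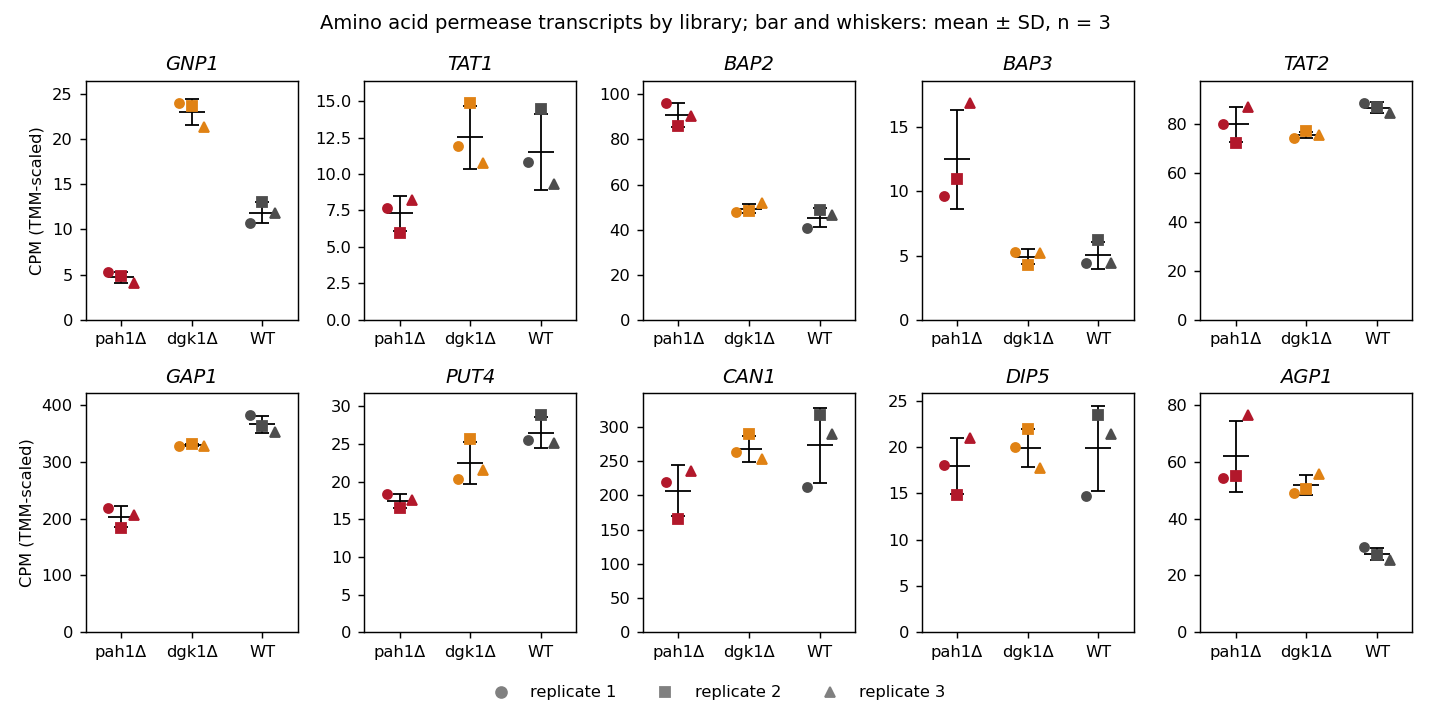
TMM-scaled CPM (y axes, each from 0) of the 9 permease genes and AGP1 in each library, grouped by genotype (pah1Δ, dgk1Δ, WT), with symbols for the replicate number and the mean ± SD (n = 3) as a bar with whiskers. GNP1 sits at 4.08 to 5.28 CPM in pah1Δ, 21.4 to 24.0 in dgk1Δ and 10.7 to 13.0 in WT, while BAP2 and BAP3 are high in the pah1Δ libraries alone.

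In pah1Δ against WT, BAP2 and BAP3 rose and TAT1, GAP1 and PUT4 fell, while TAT2, CAN1 and DIP5 did not pass the test. Of the 8 permeases other than GNP1, 2 were higher and 3 lower (edgeR's quasi-likelihood test, Benjamini-Hochberg adjusted p under 0.05 over all 6150 genes). Over all genes tested, 29.2% passed in this comparison, 16.6% as higher and 12.6% as lower. The median log2 fold change was -0.27 over the 8 genes and 0.00 over all genes tested. Since the list was put together with results of these data known, nothing is read from the count.

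BAP2 (YBR068C, chromosome II, 373861 to 375690) encodes a permease for leucine, isoleucine and valine. It had 96.3, 85.8 and 90.5 CPM in the pah1Δ libraries, against 40.6, 48.6 and 46.6 CPM in the WT libraries. Every pah1Δ library was above every WT library, with means of 90.8 ± 5.28 CPM for pah1Δ and 45.3 ± 4.14 CPM for WT (SD, n = 3). BAP2 rose by 1.01 on the log2 scale (SE 0.0894, edgeR adjusted p = 1.63e-05).

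BAP3 (YDR046C, chromosome IV, 548762 to 550576) encodes a second permease for branched-chain amino acids. It had 9.62, 10.9 and 16.9 CPM in the pah1Δ libraries, against 4.43, 6.23 and 4.39 CPM in the WT libraries. The groups did not overlap, and pah1Δ replicate 3 was the highest of all. BAP3 rose by 1.31 (SE 0.242, edgeR adjusted p = 0.00246), the larger of these 2 rises in fold but from a low level: its counts were 106 to 178 in pah1Δ and 40 to 60 in WT.

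TAT1 (YBR069C, chromosome II, 376574 to 378433), the next gene to BAP2 with 883 bases between them, encodes a tyrosine permease that also carries branched-chain amino acids. It had 7.66, 5.98 and 8.25 CPM in pah1Δ, against 10.8, 14.4 and 9.33 CPM in WT. TAT1 fell by 0.65 on the log2 scale (log2 fold change -0.65, SE 0.207, edgeR adjusted p = 0.0359), in the opposite direction to its neighbour. The groups did not overlap, but the WT libraries spread widely, and the call was lost without pah1Δ replicate 1 (adjusted p = 0.0822), pah1Δ replicate 2 (0.111), dgk1Δ replicate 1 (0.055) or WT replicate 2 (0.122). Over all alternatives its edgeR, DESeq2 or limma adjusted p ran from 0.00931 to 0.127.

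GAP1 (YKR039W, chromosome XI, 515063 to 516871) encodes the general amino acid permease, which accepts nearly all amino acids. It had 219, 183 and 207 CPM in pah1Δ, against 383, 363 and 353 CPM in WT. No pah1Δ library came near a WT library, with means of 203 ± 18.4 CPM for pah1Δ and 366 ± 15.0 CPM for WT (SD, n = 3). GAP1 fell by 0.85 on the log2 scale (SE 0.0763, edgeR adjusted p = 1.78e-05).

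PUT4 (YOR348C, chromosome XV, 986899 to 988782) encodes the proline permease. It had 18.4, 16.5 and 17.5 CPM in pah1Δ, against 25.6, 28.9 and 25.1 CPM in WT. The groups were apart, and PUT4 fell by 0.60 (SE 0.118, edgeR adjusted p = 0.0034). Over all alternatives its log2 fold change ran from -0.64 to -0.47 and its adjusted p from 0.000114 to 0.0281.

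CAN1 (YEL063C, chromosome V, 31694 to 33466) had 219, 165 and 236 CPM in pah1Δ, against 212, 318 and 290 CPM in WT. WT replicate 1 lay among the pah1Δ libraries, and the other WT libraries lay above them. The log2 fold change was -0.40 (SE 0.157, edgeR adjusted p = 0.0806). Without WT replicate 1 it was -0.55 and passed the test (adjusted p = 0.00454); it also passed without WT replicate 1 and pah1Δ replicate 2 together (-0.41, 0.000187), with the length trend removed (-0.42, 0.0077) and in DESeq2 (-0.42, 0.0363). The part of the length trend in the CAN1 value was not tested beyond these fits.

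TAT2 (YOL020W, chromosome XV, 286172 to 287950), which encodes the high-affinity tryptophan permease, had 80.3, 72.5 and 87.1 CPM in pah1Δ, against 88.8, 87.3 and 84.5 CPM in WT. DIP5 (YPL265W, chromosome XVI, 41043 to 42869), the permease for glutamate and aspartate, had 18.0, 14.8 and 21.0 CPM in pah1Δ, against 14.7, 23.5 and 21.4 CPM in WT. Both genes overlapped between the groups. The log2 fold changes were -0.12 for TAT2 (SE 0.082, edgeR adjusted p = 0.309) and -0.14 for DIP5 (SE 0.185, 0.626).

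AGP1 (YCL025C, chromosome III, 76018 to 77919) encodes a broad-range permease related to GNP1. It had 54.4, 55.0 and 76.4 CPM in pah1Δ, 49.0, 50.5 and 55.8 CPM in dgk1Δ, and 29.9, 27.1 and 25.6 CPM in WT. Both deletion strains were above WT in every library, by 1.17 on the log2 scale in pah1Δ (SE 0.137, edgeR adjusted p = 0.000126) and 0.91 in dgk1Δ (SE 0.138, 0.00354). The 20 nearest genes with a mean of at least 10 CPM, 10 on each side, had a median of -0.00 in pah1Δ over WT, and none of them was as high as AGP1. In dgk1Δ over WT the same 20 genes had a median of 0.82, and 9 of them were above AGP1. The rise of AGP1 in dgk1Δ thus cannot be told apart from that of the block, whereas in pah1Δ it stood above all 20 neighbours. The pah1Δ reading holds for this window only. Around GFD2, also on chromosome III, the 10 nearest genes had a median of 0.448 in pah1Δ over WT. The highest of those genes lay above AGP1. Whether the rise of AGP1 in pah1Δ was separate from that of other genes on this chromosome was not tested.

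**Figure D2:**
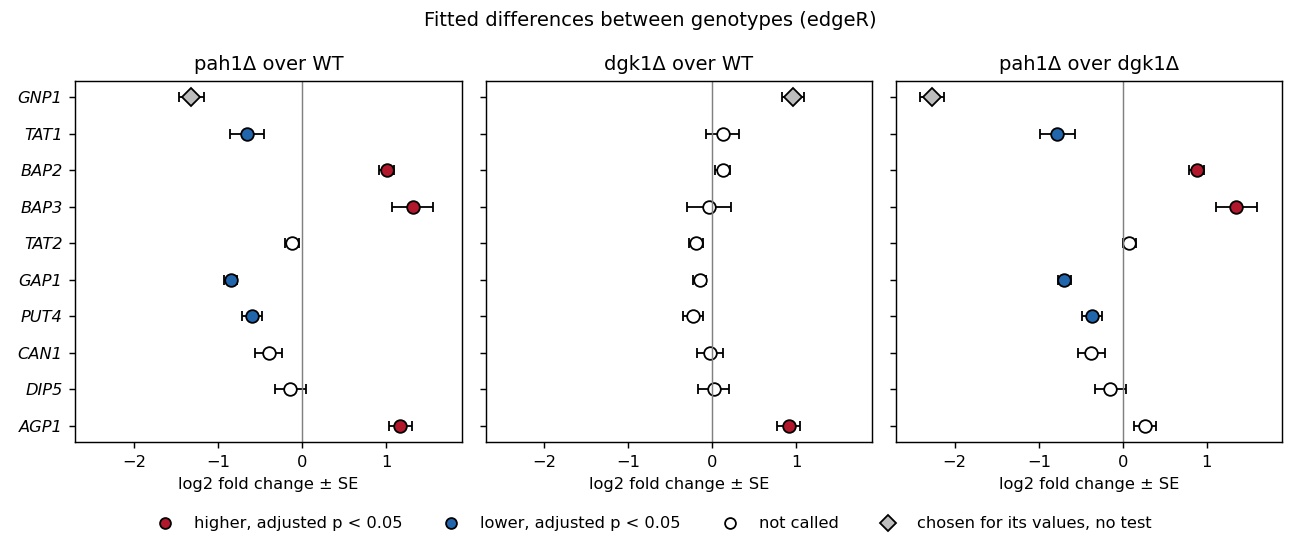
Fitted log2 fold changes (x axes) with SE for the 9 permease genes and AGP1 (rows) in pah1Δ over WT, dgk1Δ over WT and pah1Δ over dgk1Δ; red and blue circles passed the test as higher and lower, open circles did not, and grey diamonds mark GNP1, which has no test. BAP2 at 1.01 and BAP3 at 1.31 lie to the right in pah1Δ over WT, while the 8 permeases other than GNP1 lie between -0.23 and 0.12 in dgk1Δ over WT.

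In dgk1Δ against WT, none of the 8 permeases other than GNP1 passed the test. Over all genes tested, 1.92% passed in this comparison, 1.64% as higher and 0.276% as lower. These were 101 genes higher and 17 lower. With the genes of chromosomes III and IX left out of the fit, 6 were higher and 12 lower. The count of 0 came from edgeR's quasi-likelihood test, and DESeq2 and limma on FPKM also gave 0; at an unadjusted p under 0.05 in edgeR there was 1, TAT2. TAT2 had 74.4, 77.1 and 75.5 CPM in dgk1Δ, against 88.8, 87.3 and 84.5 CPM in WT, with no overlap (log2 fold change -0.20, SE 0.0821, adjusted p = 0.482). GAP1 also lay below WT in each library, with 328, 331 and 328 CPM in dgk1Δ, against 383, 363 and 353 CPM in WT (-0.15, SE 0.0755, 0.608).

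The log2 fold changes of the other 6 in dgk1Δ were 0.12 for BAP2 (SE 0.0906), -0.04 for BAP3 (0.26), 0.12 for TAT1 (0.198), 0.01 for DIP5 (0.184), -0.23 for PUT4 (0.115) and -0.02 for CAN1 (0.156). Their adjusted p-values lay between 0.623 and 0.997. For BAP3, TAT1, DIP5 and CAN1 the SE was larger than the value itself, and the sign turned under some alternatives. GNP1, chosen for its difference, was at 0.96 in the same comparison. Both comparisons share the WT libraries.

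Set directly against each other, pah1Δ and dgk1Δ differed in BAP2, BAP3, TAT1, GAP1 and PUT4 among the 8 permeases, where 25.1% of all genes passed, 14.2% as higher and 10.8% as lower in pah1Δ. BAP2 was higher in pah1Δ, at 96.3, 85.8 and 90.5 CPM, against 47.9, 48.4 and 51.6 CPM in dgk1Δ (log2 fold change 0.88, SE 0.0887, edgeR adjusted p = 4.01e-05). BAP3 was higher at 9.62, 10.9 and 16.9 CPM in pah1Δ, against 5.26, 4.23 and 5.21 CPM in dgk1Δ (1.35, SE 0.241, 0.00217). GAP1 was lower at 219, 183 and 207 CPM in pah1Δ, against 328, 331 and 328 CPM in dgk1Δ (-0.70, SE 0.0762, 7.5e-05). These 3 genes passed in each of the alternatives that kept them in the fit.

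The other 2 calls between the deletion strains were weaker. TAT1 had 7.66, 5.98 and 8.25 CPM in pah1Δ, against 11.9, 14.9 and 10.7 CPM in dgk1Δ (-0.78, SE 0.205, edgeR adjusted p = 0.0179). PUT4 had 18.4, 16.5 and 17.5 CPM in pah1Δ, against 20.3, 25.6 and 21.6 CPM in dgk1Δ (-0.37, SE 0.118, 0.0431). Both calls were lost without pah1Δ replicate 1 (adjusted p 0.052 for TAT1 and 0.0792 for PUT4), pah1Δ replicate 2 (0.0623 and 0.111) or dgk1Δ replicate 2 (0.0857 and 0.196), which left 3 of the 8, and that of PUT4 also without pah1Δ replicate 3 (0.0934), dgk1Δ replicate 3 (0.0873) or WT replicate 3 (0.0632). CAN1 did not pass (-0.37, SE 0.157, 0.111), though each pah1Δ library was below each dgk1Δ library. It passed in 4 of the 21 alternatives. These were the fits without WT replicate 1 (0.0209), without WT replicate 1 and pah1Δ replicate 2 together, with only the 2 groups compared and with the length trend removed. TAT2 was at 0.08 (SE 0.0821, 0.532) and DIP5 at -0.15 (SE 0.184, 0.603).

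Levels of different genes were compared per length, in the authors' FPKM (reads scaled by exon length and by the library's total). In WT, GAP1 stood first at 193 to 201 FPKM and CAN1 second at 151 ± 35.4 (mean and SD, n = 3), followed by TAT2 at 47.6 ± 1.46 and BAP2 at 24.2 ± 3.12. PUT4 at 13.7 ± 1.44, DIP5 at 10.7 ± 2.81, TAT1 at 6.05 ± 1.52 and GNP1 at 5.81 ± 0.763 came next, and the ranges of each neighbouring pair in this stretch overlapped. BAP3 was lowest at 2.70 ± 0.644, below every WT library of GNP1. TAT1 was above GNP1 in 2 of the 3 WT libraries.

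The order differed in the deletion strains. In pah1Δ, CAN1 at 121 ± 21.2 FPKM and GAP1 at 116 ± 10.9 overlapped at the top, BAP2 at 51.4 ± 3.30 came next beside TAT2 at 46.5 ± 3.96 (ranges overlapping, BAP2 above TAT2 in all 3 libraries), and GNP1 was last at 2.46 ± 0.339, below every library of TAT1 at 4.06 ± 0.643. BAP3 at 7.11 ± 2.12 was above TAT1 in each pah1Δ library. In dgk1Δ, GNP1 at 11.4 ± 0.823 overlapped with PUT4 at 11.8 ± 1.51 and DIP5 at 10.8 ± 1.23 and was above every library of TAT1 at 6.67 ± 1.19. The ratio of BAP2 to GNP1 within a library was 19.9, 19.3 and 24.1 in pah1Δ, 2.17, 2.23 and 2.63 in dgk1Δ and 4.12, 4.08 and 4.28 in WT. This ratio includes GNP1, so it is a description of the same choice.

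As a pool, the 9 transcripts summed to 369 ± 40.1 FPKM in pah1Δ, 442 ± 18.7 in dgk1Δ and 459 ± 47.6 in WT (SD, n = 3). The pah1Δ libraries, at 322 to 392 FPKM, lay below all others, while dgk1Δ at 426 to 463 and WT at 408 to 503 overlapped. GAP1 and CAN1 together made up 62.6% to 65.4% of the sum in the pah1Δ libraries, 74.4% to 74.8% in dgk1Δ and 75.5% to 76.3% in WT. BAP2 and BAP3 together made up 15.3% to 17.0% in pah1Δ, 6.20% to 7.14% in dgk1Δ and 5.62% to 5.98% in WT. GNP1 made up 0.536% to 0.782% in pah1Δ, 2.47% to 2.73% in dgk1Δ and 1.23% to 1.30% in WT, so that a large fold difference in GNP1 was a small part of the pool. Bulk RNA does not tell fewer cells with a transcript from less transcript per cell.

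**Figure D3:**
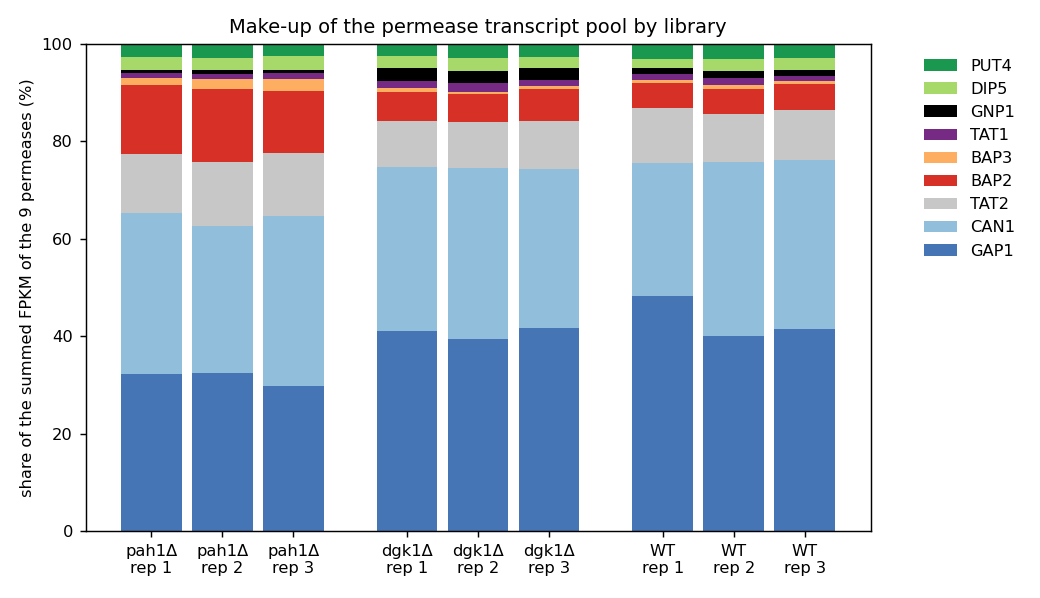
Share (%) of the summed FPKM of the 9 permease genes taken by each gene (colours) in each library (bars, 3 per genotype). BAP2 and BAP3 take 15.3% to 17.0% in the pah1Δ bars and 7.14% or less in the others, and GNP1 is a thin band that is widest in dgk1Δ at 2.47% to 2.73%.

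The 5 genes whose pattern was most like that of GNP1 were named by the Pearson correlation of log2 CPM over the 9 libraries, among 5303 other genes with a mean of at least 10 CPM. They were ACO1 (r = 0.986), which encodes aconitase, DLD3 (0.982), the fatty acyl-CoA synthetase gene FAA3 (0.976), RAS2 (0.969), which encodes a small GTPase, and GFD2 (0.968). All 9 libraries enter each value and fall into the same 3 genotypes, so r reflects the group means. ACO1 averaged 717 ± 43.8 CPM in pah1Δ, 1145 ± 48.9 in dgk1Δ and 983 ± 44.3 in WT, a smaller spread in fold than that of GNP1. FAA3 averaged 89.8 ± 6.44 CPM in pah1Δ, 252 ± 7.67 in dgk1Δ and 150.2 ± 21.7 in WT. FAA3 on chromosome IX and GFD2 on chromosome III lie among genes with raised RNA in dgk1Δ: their 10 nearest genes had medians of 0.97 and 1.04 on the log2 scale over WT. The neighbours of the other 3 had medians between -0.02 and 0.01 in dgk1Δ.

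Genes that sense amino acids or move permeases were described in 8 lists of 77 entries in all. The counts of each list in pah1Δ over WT stand beside 29.2% of all genes called, and nothing is read from them about a list. Of 12 genes of SPS sensing, 1 passed in pah1Δ over WT: ASI2, part of a nuclear membrane ubiquitin ligase that keeps uncleaved Stp1 and Stp2 in check, at 48.4 ± 1.48 CPM in pah1Δ and 38.6 ± 1.07 in WT (log2 fold change 0.33, SE 0.0806, edgeR adjusted p = 0.0114). The sensor SSY1 (0.14, 0.363), PTR3 (0.12, 0.549), STP1 (0.08, 0.561) and STP2 (0.24, 0.114) did not pass. The list had a median of 0.10. This count rested on single libraries: it was 5 without WT replicate 1, with SSY5, DAL81, GRR1 and YCK2 lower, and 0 without pah1Δ replicate 1. Calls over all genes moved as well, from 1023 higher and 775 lower to 1295 and 1172 without WT replicate 1. They were 773 and 447 without pah1Δ replicate 1. Counts of the lists below without a library stand beside these shifts, and nothing is read from them about a list. In dgk1Δ over WT 1 passed, DAL81, a co-activator of these promoters, at 164 ± 17.1 CPM in dgk1Δ and 81.0 ± 24.0 in WT (1.02, SE 0.204, 0.0265), and it lost its call without dgk1Δ replicate 1 or 2, pah1Δ replicate 1 or WT replicate 3 (0.0603 to 0.127). DAL81 lies on chromosome IX, and its 10 nearest genes had a median of 0.90 in dgk1Δ.

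Of 12 other plasma membrane transporters of amino acids and peptides, 3 rose and 3 fell in pah1Δ, with a median of 0.01, where 16.6% of all genes were called higher and 12.6% lower. AGP1 rose as above, and AGP3 rose by 0.99 (15.9 ± 1.14 CPM in pah1Δ and 7.95 ± 0.997 in WT, edgeR adjusted p = 0.000847). PTR2, the carrier of small peptides, was the other rise, by 0.42 (edgeR adjusted p = 0.0268). The call of PTR2 was lost without pah1Δ replicate 1 or 3 or WT replicate 1 or 3, and with only the 2 groups compared. SAM3, the S-adenosylmethionine permease, fell by 0.58 (194 ± 10.7 CPM in pah1Δ and 289.7 ± 12.4 in WT, 0.00021), with HIP1 and MMP1. In dgk1Δ, AGP1 was higher and MUP1, SAM3 and MMP1 were lower, beside 1.92% of all genes called, 1.64% as higher and 0.276% as lower. The methionine permease MUP1 fell by 1.41 (129 ± 5.98 CPM in dgk1Δ and 342 ± 3.49 in WT, 2.38e-05), SAM3 by 1.13 (133 ± 8.29 CPM in dgk1Δ and 289.7 ± 12.4 in WT, 1.56e-05) and the S-methylmethionine permease MMP1 by 0.69 (40.0 ± 0.941 CPM in dgk1Δ and 64.7 ± 1.06 in WT, 0.000319). These 3 falls passed in all 21 alternatives. MUP3, a further methionine permease gene of the list, was at -0.09 in dgk1Δ (0.931).

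**Figure D4:**
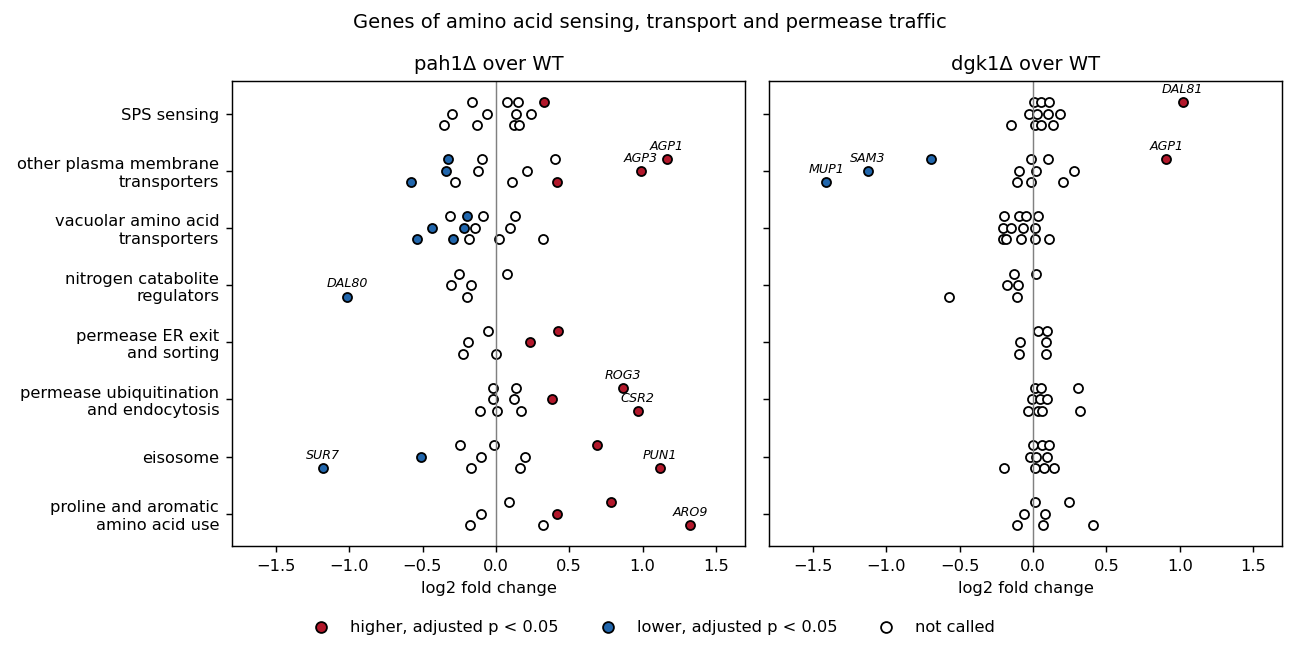
Log2 fold changes (x axes) of each tested gene of the 8 lists (rows) in pah1Δ over WT and dgk1Δ over WT; red and blue points passed the test as higher and lower, open points did not, and called genes beyond 0.85 are named. SUR7 at -1.18 and ARO9 at 1.33 are the outermost points in pah1Δ, and MUP1 at -1.41 is the outermost in dgk1Δ.

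Of 13 vacuolar amino acid transporters tested, 5 fell and 0 rose in pah1Δ, with a median of -0.19; over all genes 12.6% were called lower and 16.6% higher. YPQ1, a carrier of basic amino acids, fell by 0.54 (114 ± 5.53 CPM in pah1Δ and 166 ± 15.6 in WT, edgeR adjusted p = 0.000803), VSB1, needed for their storage in the vacuole, by 0.43 (0.000696) and YPQ2 by 0.29 (0.0111), with AVT1 and VBA1. The count was 8 without WT replicate 1, when AVT6 was among them as higher, and 3 without pah1Δ replicate 1, dgk1Δ replicate 2 or 3 or WT replicate 2 or 3. In dgk1Δ none passed in edgeR, DESeq2 or limma, 4 had an unadjusted p under 0.05 in edgeR, and VSB1 was nearest (-0.21, 0.264).

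Of 6 nitrogen catabolite regulators, DAL80, a GATA-type repressor, fell in pah1Δ by 1.01 (5.40 ± 1.98 CPM in pah1Δ and 10.9 ± 1.41 in WT, edgeR adjusted p = 0.00984), and the list had a median of -0.23. GLN3 (-0.25, 0.264), GAT1 (-0.17, 0.299) and NPR1 (-0.30, 0.0796) did not pass, and without WT replicate 1 there were 4 calls, all lower: GLN3, GZF3 and NPR1 besides DAL80. In dgk1Δ none passed in edgeR, DESeq2 or limma, 1 had an unadjusted p under 0.05 in edgeR, and DAL80 was at -0.57 (0.479). Of 7 genes of proline and aromatic amino acid use, 3 rose in pah1Δ, with a median of 0.32. PUT1, the proline oxidase gene, rose by 0.78 (241 ± 27.5 CPM in pah1Δ and 140.0 ± 7.38 in WT, 0.000129), while the permease gene PUT4 of the same pathway fell. The aromatic aminotransferase gene ARO9 rose by 1.33 from a low level (4.98 ± 0.873 CPM in pah1Δ and 1.98 ± 0.187 in WT, 0.0015). Its activator ARO80 rose by 0.42 (0.00491). In dgk1Δ none passed in edgeR, DESeq2 or limma, 1 had an unadjusted p under 0.05 in edgeR, and PUT1 was at 0.24 (0.427).

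Permease traffic genes moved in a few members. Of 6 genes of exit from the endoplasmic reticulum and sorting, 2 rose in pah1Δ, with a median of -0.03: LST7, known for Gap1 sorting, by 0.42 (edgeR adjusted p = 0.0127) and LST8, a subunit of the TOR kinase complexes, by 0.23 (0.0298). The call of LST8 was lost without any 1 of the libraries other than WT replicate 1 (0.0511 to 0.112), which left 1 call. Of 10 genes of permease ubiquitination and endocytosis, 3 rose, beside 16.6% of all genes called higher, with a median of 0.13. They were 3 of the arrestin-type adaptors of the ubiquitin ligase Rsp5: CSR2 by 0.97 (28.0 ± 5.51 CPM in pah1Δ and 14.3 ± 0.712 in WT, 0.000684), ROG3 by 0.87 (0.000313) and ROD1 by 0.39 (0.0374). Of the other arrestin-type genes, LDB19 (-0.02), ECM21 (0.12), ALY1 (-0.02) and ALY2 (0.14) did not pass. ROD1 overlapped between the groups and lost its call without pah1Δ replicate 1 or 3, WT replicate 1 or 3 or any dgk1Δ library (0.0565 to 0.133), which left 2 called as higher. RSP5 itself was at -0.11 (0.383) and passed as lower without WT replicate 1.

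Of 10 eisosome genes, 2 rose and 2 fell in pah1Δ, with a median of -0.06, beside 29.2% of all genes called. SUR7 fell by 1.18 (94.4 ± 7.33 CPM in pah1Δ and 213 ± 5.07 in WT, edgeR adjusted p = 1.8e-06), and PUN1, of the same family of membrane proteins, rose by 1.12 (399 ± 21.9 CPM in pah1Δ and 184 ± 10.9 in WT, 3.26e-06). NCE102 fell by 0.51 (0.000926) and FMP45 rose by 0.69 (0.038). The core coat genes PIL1 (0.16, 0.106) and LSP1 (-0.01, 0.932) did not pass. Leaving out WT replicate 1 gave 6 calls, with SEG1 and EIS1 also lower, and the call of FMP45 was lost without pah1Δ replicate 2 or 3, dgk1Δ replicate 1 or WT replicate 2 or 3. In dgk1Δ none of the sorting, endocytosis or eisosome genes passed in edgeR, DESeq2 or limma, and 0, 2 and 1 had an unadjusted p under 0.05 in edgeR; LST8 was at 0.09 (0.819), ROG3 at 0.32 (0.382) and SUR7 at -0.20 (0.391).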

How the data were processed

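Poly(A) RNA was sequenced from 9 libraries, 3 each of pah1Δ, dgk1Δ and WT yeast. Per the submitters' processing notes, HISAT2 2.2.1, HTSeq 0.6.1 and build R64 were used. The deposited table held whole-number counts per gene, not normalized per the file headers and values, and FPKM computed by the authors, each equal to the count divided by exon length and a library total. The sources used here do not give the strand setting or how multiply mapping reads were treated, so paralogs and overlapping genes may share or lose reads. Of the table's lines, 4 were empty; 6045 of 7122 gene identifiers matched RefSeq R64. No per-sample column was left unused (0).

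Counts were fitted in edgeR 4.0.16 (R 4.3.3) with filterByExpr, TMM and 1 robust quasi-likelihood model of 3 genotype means over all 9 libraries (6150 genes, 6 residual degrees of freedom). The fit was tried on counts simulated without the trend with gene length, so that trial does not bear on the trend. Calls used a Benjamini-Hochberg adjusted p under 0.05 over all genes. SE is the absolute log2 fold change over the square root of F. The alternatives used DESeq2 1.42.0, limma 3.58.1 on log2(FPKM + 1) and log2(FPKM + 0.1), other scalings and filters, left-out libraries and an offset for gene length.

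The members and lists were chosen with earlier results of these data known. All 9 members, AGP1, up to 3 called genes per list and comparison with WT (or the 1 with the smallest p) and the 5 genes most like GNP1 were named. Other list genes, the motifs and the regions printed were chosen after their values were seen. Of 77 list entries, 2 were matched by RefSeq locus tag and VBA3 was not tested.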

Additional observations from a re-analysis of the deposited data

How the results depend on the processing

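Over 21 alternatives, 4 to 6 of the 8 permeases other than GNP1 passed in pah1Δ over WT and 0 in dgk1Δ over WT. BAP2, BAP3, GAP1 and PUT4 passed in pah1Δ over WT wherever they were in the fit; a mean of at least 10 CPM left BAP3 out. In pah1Δ over dgk1Δ the count of 5 was 3 with that mean, 3 on log2(FPKM + 1) and 3 on log2(FPKM + 0.1), and 3 to 6 when 1 library was left out. In pah1Δ over dgk1Δ, TAT1 and PUT4 lost calls in both FPKM fits, and the cause was not tested. In pah1Δ over WT, TAT1 lost its call in 9 of the 21 alternatives. Besides single libraries left out, these were library size only (edgeR adjusted p = 0.0684), only the 2 groups compared (0.0659) and the replicate block (0.0686). Both FPKM fits were the others (limma adjusted p = 0.126 and 0.127), and PUT4 kept its call in them.

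Values that turned sign were never called. In dgk1Δ over WT they were those of BAP3, TAT1, DIP5 and CAN1, at -0.04, 0.12, 0.01 and -0.02 in the main fit. In pah1Δ over WT it was DIP5, at -0.14 in the main fit. In dgk1Δ over WT, DIP5 (0.01) was -0.0009874 with RLE factors, -0.00273 in DESeq2, -0.000237 with the length trend removed and -0.17 without WT replicate 1 and pah1Δ replicate 2 together (chosen after seeing the data). CAN1 (-0.02) was 0.0166 on log2(FPKM + 1) and 0.0168 on log2(FPKM + 0.1), and BAP3 (-0.04) was 0.00219 on log2(FPKM + 0.1). When 1 library was left out, the range was -0.13 to 0.13 for BAP3, -0.0263 to 0.30 for TAT1, -0.17 to 0.14 for DIP5 and -0.18 to 0.0904 for CAN1 in dgk1Δ, and -0.32 to 7.88e-05 for DIP5 in pah1Δ.

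Deviations of same-numbered libraries from their group means correlated from -0.507 to 0.359. A library correlated best with its own number in 3 of 18 comparisons. These deviations hold the trend with gene length, and each group has only 3 libraries. This check therefore cannot tell whether same-numbered libraries were prepared together. With a replicate block, 4, 0 and 4 of the 8 permeases passed in pah1Δ over WT, dgk1Δ over WT and pah1Δ over dgk1Δ. Over the alternatives, the calls in pah1Δ over WT ran from 0 to 7 for SPS sensing, 5 to 8 for other plasma membrane transporters, 3 to 8 for vacuolar transporters, 0 to 4 for nitrogen regulators, 1 to 3 for sorting, 2 to 5 for endocytosis, 3 to 7 for eisosomes and 2 to 4 for proline and aromatic amino acid use. Calls over all genes in pah1Δ over WT moved too. They went from 1023 higher and 775 lower to 1378 and 1316 without WT replicate 1 and pah1Δ replicate 2 together. In dgk1Δ over WT, leaving out WT replicate 1 and pah1Δ replicate 2 together added calls for STP2, AVT4, VSB1 and NPR1 as lower and LSP1 as higher. Over all genes that setting gave 269 higher and 103 lower in dgk1Δ over WT, against 101 and 17 in the main fit. Library size only moved the median of all genes to 0.09 in pah1Δ over WT. Counts of 40 to 62 per library limit GNP1 in pah1Δ and BAP3 in dgk1Δ and WT.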
